A study of Mus musculus with 6 samples.

Results

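The ribosomal protein pseudogenes described here were the genes whose biotype in the deposited gene table contains the word pseudogene and whose symbol is Rpl or Rps, a number and then -ps. There were 254 of them among 52636 genes, 160 named after proteins of the large ribosomal subunit (Rpl) and 94 after proteins of the small subunit (Rps). The gene table lists 249 as processed pseudogenes and 5 as transcribed processed pseudogenes, and in 250 the exon length equals the whole span, so that these have no intron. The samples were optic nerves of mice, sequenced as stranded total RNA after removal of ribosomal RNA, with 3 libraries labelled hND6 and 3 labelled mCherry. hND6 stands for a mutant form of human ND6, which encodes part of the first complex of the respiratory chain and normally sits in mitochondrial DNA. mCherry is a red fluorescent protein. The treatment text, a lentivirus with the mutant human gene injected into the eye, is the same for both groups. They are told apart by the labels hND6 and mCherry, which the sample titles also carry. The labels give no strain, age, time after injection or animal for any library, nor what the mCherry eyes received. The p-values therefore reflect spread between libraries that may be technical replicates.

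Processed pseudogenes arise when a messenger RNA is copied back into DNA and inserted elsewhere in the genome. Such copies lack the introns of the gene they came from, here called the parent, and usually lack its promoter. Ribosomal protein genes, which every cell transcribes strongly to build ribosomes, have left large numbers of them in mammalian genomes. A short sequencing read from a young copy can be hard to tell from a read of the parent's spliced RNA, and the treatment of reads that match several places was not given in the sources used here.

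The optic nerve carries axons and glia, and the oligodendrocyte marker Mbp, a protein of myelin, had 2643, 2988 and 3009 FPKM in hND6 and 2783, 2707 and 1818 FPKM in mCherry. In 3 libraries markers of other tissues were higher. The 5 neuron markers, whose cell body genes include Rbfox3 and the cortical factor Tbr1, summed to 165 FPKM in hND6 1 and 404 FPKM in mCherry 3, against 25.7 to 45.3 FPKM in the other 4 libraries. The 4 photoreceptor markers summed to 167 FPKM in hND6 2 and to at most 4.99 FPKM elsewhere. Reads assigned to genes ran from 20253637 to 34057682 in hND6 and from 25718356 to 34758873 in mCherry.

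The sequences of 3 copies show how close these copies can be to their parents. Rpl38-ps2, the pseudogene with the highest mean level, is 213 bases long and identical to the whole coding sequence of Rpl38, a large-subunit protein that in mice also shapes the skeleton through translation of Hox messages. It lies on chromosome 6 at chr6:140746960-140747172, minus strand, opposite to Gm11077, whereas Rpl38 is a multi-exon gene on chromosome 11. Capitals mark the 25 bases on either side of 2 exon junctions of Rpl38, which the copy carries already joined. All sequences are GENCODE M21 transcripts on GRCm38.
Rpl38-ps2: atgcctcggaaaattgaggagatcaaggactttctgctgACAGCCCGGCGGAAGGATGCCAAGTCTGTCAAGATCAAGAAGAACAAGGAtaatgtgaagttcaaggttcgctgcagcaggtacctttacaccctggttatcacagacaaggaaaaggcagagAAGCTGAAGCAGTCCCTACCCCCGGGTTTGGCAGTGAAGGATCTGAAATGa

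Rps15-ps2 was chosen after its values were seen, as a copy with a mismatch to its parent in most of its stretches of 50 bases. It spans chr6:58017506-58017943 on the plus strand with no other gene there, is 97.7% identical to its parent with 10 mismatches, and carries none of the parent's junctions with 25 identical bases on both sides. Positions 37 to 336 (chr6:58017542-58017841) stand here above the same positions of the coding sequence of Rps15, a small-subunit protein, with the 9 mismatches in capitals.
Rps15-ps2: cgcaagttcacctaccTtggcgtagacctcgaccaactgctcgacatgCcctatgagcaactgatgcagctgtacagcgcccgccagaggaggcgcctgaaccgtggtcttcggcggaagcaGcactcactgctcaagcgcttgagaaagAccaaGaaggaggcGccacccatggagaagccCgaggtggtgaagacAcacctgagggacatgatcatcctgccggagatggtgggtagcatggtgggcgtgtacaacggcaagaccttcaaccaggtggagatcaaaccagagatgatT
Rps15: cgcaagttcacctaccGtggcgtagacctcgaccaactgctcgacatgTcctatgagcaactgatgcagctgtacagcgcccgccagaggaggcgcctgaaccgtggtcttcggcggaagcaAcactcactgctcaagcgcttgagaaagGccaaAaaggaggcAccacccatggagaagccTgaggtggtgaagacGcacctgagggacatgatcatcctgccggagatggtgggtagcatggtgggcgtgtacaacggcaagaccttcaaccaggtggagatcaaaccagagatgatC

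Rpl7-ps7, the pseudogene with the smallest p-value between the groups, spans chr5:82336851-82337649 on the plus strand with no other gene there. It is 98% identical to Rpl7, a large-subunit protein, with 16 mismatches. Positions 55 to 354 of the copy (chr5:82336905-82337204) are set above positions 70 to 369 of the coding sequence of Rpl7, and capitals mark the 11 mismatches.
Rpl7-ps7: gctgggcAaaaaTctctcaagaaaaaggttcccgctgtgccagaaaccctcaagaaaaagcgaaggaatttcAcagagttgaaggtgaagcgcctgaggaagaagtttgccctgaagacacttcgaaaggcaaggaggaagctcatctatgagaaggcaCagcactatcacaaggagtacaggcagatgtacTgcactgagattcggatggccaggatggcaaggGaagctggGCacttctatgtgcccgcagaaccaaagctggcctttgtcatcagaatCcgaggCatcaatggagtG
Rpl7: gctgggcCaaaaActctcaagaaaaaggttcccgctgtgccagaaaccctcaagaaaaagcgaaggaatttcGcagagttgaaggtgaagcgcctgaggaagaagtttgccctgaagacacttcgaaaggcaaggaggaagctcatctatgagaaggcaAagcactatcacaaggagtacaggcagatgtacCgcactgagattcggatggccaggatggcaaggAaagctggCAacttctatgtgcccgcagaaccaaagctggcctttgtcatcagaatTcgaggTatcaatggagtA

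Most of the copies were silent in the deposited values. Of the 254 pseudogenes 146 were listed at 0 in all 6 libraries, 72 had reads but averaged under 0.5 FPKM, and 36 (14.2%) reached the mean of 0.5 FPKM over the 6 libraries that a gene needed to be tested. FPKM is a count of sequenced fragments scaled by exon length and by library size. At least 1 read was present for 42.5% of the pseudogenes, against 51.9% of all genes in the table. Of the 36 tested, 21 were of large-subunit and 15 of small-subunit proteins, and 34 averaged at least 0.5 FPKM in both groups.

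Copies were spread unevenly over the parents. Rpl31 and Rps12 had the most copies, 22 each. For Rpl31, 7 copies had reads and 1 was tested. For Rps12, 3 copies had reads and none was tested. The 13 copies of Rpl23a had no read in any library. Rps15a, with 8 copies, had 3 tested, the most of any parent. All pseudogenes together held 29057 reads over the 6 libraries. Rpl14-ps1, a copy of a large-subunit gene, held 13.8% of them, the 5 copies with most reads 46.8%, the 10 with most reads 71.2% and the 36 with most reads 98.5%. The 72 copies with reads below the filter shared 459 reads, with a median of 3 and a maximum of 44.

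Copies nested in another gene had no reads. On the same strand, 20 copies lie wholly inside another gene, most of them inside protein-coding genes such as Nup93, Ide and Usp32, and all 20 had 0 reads. The same held for 840 other processed pseudogenes placed inside a gene on their strand, none of which had a read. Rpl10-ps1, inside Pax6os1, and Rpl36a-ps2, inside Ddah1, are identical to their parents and are among the 20. An FPKM of 0 is not read as absence of RNA for these copies. A further 5 copies, all of Rpl19, overlap an annotated microRNA gene on their strand, and 3 of these had reads, nearly all in Rpl19-ps11 with 1655. Copies with a gene on the opposite strand only had reads in 28 of 50 cases, and copies with no other gene in 77 of 178 (43.3%). For other processed pseudogenes the share with reads was 30.7% (opposite strand only) and 26.1% (no other gene).

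Copies close to their parent in sequence had reads more often than distant ones. Of the 11 copies identical to the parent transcript over their whole length, 9 had reads and 8 were tested, and the 2 without reads are the nested Rpl10-ps1 and Rpl36a-ps2. Of 36 copies with at least 99% but less than 100% identity, 25 had reads and 11 were tested. Of the 34 copies from 98 to 99% identity 22 had reads and 7 were tested. The counts were 28 and 6 of 59 copies from 95 to 98%, 15 and 3 of 53 copies from 90 to 95%, and 8 and 1 of 58 copies under 90%. The 11 identical copies held 41.5% of all pseudogene reads, and copies of at least 99% identity held 67.5%. Of the 254 copies 3 had no alignment to a parent transcript.

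**Figure D1:**
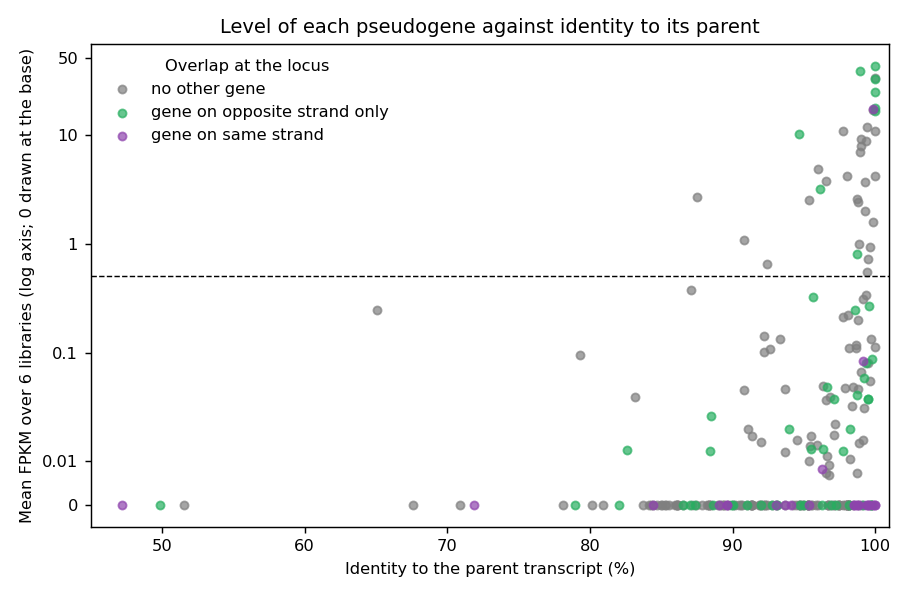
Mean FPKM over 6 libraries of each aligned pseudogene (log axis, with 0 drawn at the base) against its identity to the parent transcript in percent. Colours give the overlap with other genes, and the dashed line is the 0.5 FPKM needed for a test. The highest points lie at the right edge, where copies are identical or nearly so, and a row of copies at every identity sits at 0.

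Copies with reads also shared longer stretches that a short read cannot place between copy and parent. The share of 50-base windows of a copy that occur unchanged in the parent transcript had a median of 71.6% in the 36 tested copies, 34.3% in copies with reads below the filter and 4.35% in copies without reads. The median longest run identical to the parent was 226, 131 and 64 bases in the same 3 classes. Windows of some copies also occur in genes other than the parent. Examples are Rpl31-ps8 with 79.9% in Rpl31-ps9, Rpl28-ps1 with 86.3% in Gm10051 and Rpl34-ps1 with 83.3% in Gm10154. Rpl14-ps1 had no such window. Joined exon junctions are found in the parent's spliced RNA and not in its genomic DNA. Of 131 copies with no junction held in 25 identical bases on either side, 30 had reads and 4 were tested. Of 120 copies with at least 1 such junction, 77 had reads and 32 were tested, and these copies held 94.1% of all pseudogene reads.

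A few copies had reads although most of their 50-base windows do not occur unchanged in the parent. Identity over the whole copy was still 97.7% for Rps15-ps2 and 87.5% for Rpl36a-ps3, and whether their reads came from the copy was not tested. Rps15-ps2, shown above, has 22.1% of its 50-base windows in Rps15 and 32.1% in the transcripts of any gene but itself, Rps15 included. It had 197, 132 and 125 reads in the hND6 libraries and 73, 111 and 105 reads in the mCherry libraries. Rpl22-ps1, a copy of a large-subunit gene with 24.3% of its windows in the transcripts of any gene but itself, the parent included, had 5 to 8 reads in the hND6 libraries and 4 to 13 in the mCherry libraries. Rpl36a-ps3 shares no 50-base window with Rpl36a, the gene it is named after, but 81.6% of its windows occur in Rpl36al, a relative of that gene. Rps15-ps2, Rpl22-ps1 and Rpl36a-ps3 were named after their values were seen.

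The 10 most abundant copies had their higher means in hND6, and the groups overlapped in 1 of them. Over all tested genes, 12.6% had hND6 higher without overlap. Rpl38-ps2 had 52.8, 46.5 and 60.4 FPKM in hND6 and 32.9, 23.4 and 39.98 FPKM in mCherry. Rpl14-ps1 (chr7:45324965-45325617, plus strand, opposite to Trpm4) had 46.6, 50.9 and 46.9 FPKM in hND6 and 31.3, 24.1 and 31.4 FPKM in mCherry. In both copies every hND6 library lay above every mCherry library. Rpl14-ps1 is 98.9% identical to Rpl14, and 78.3% of its 50-base windows occur in the parent and in no other gene. Rpl31-ps8 (chr15:90764279-90764656, minus strand), identical to Rpl31 over 378 bases, had 37.8, 38.4 and 39.5 FPKM in hND6 and 26.1, 24.02 and 33.7 FPKM in mCherry. Rps23-ps1 (chr3:37714740-37715164, plus strand), identical to the gene of the small-subunit protein at the decoding centre, had 32.99, 41.5 and 43.5 FPKM in hND6 and 26.98, 18.5 and 30.01 FPKM in mCherry. The groups did not overlap for either copy.

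The next copies were closely spaced in level. Rps16-ps2 (chr5:129128077-129128517, minus strand, opposite to Adgrd1), identical to the small-subunit gene Rps16, had 32.9, 27.2 and 29.8 FPKM in hND6 and 19.2, 20.1 and 19.8 FPKM in mCherry. Rps6-ps4 (chr2:75191073-75191822, minus strand), identical to Rps6, the small-subunit protein that S6 kinase phosphorylates, had 21.6, 21.8 and 18.8 FPKM in hND6 and 15.4, 13.0 and 14.0 FPKM in mCherry. Rpl19-ps11 (chr8:19492936-19493526, plus strand), with 1 mismatch to the large-subunit gene Rpl19, had 20.1, 20.2 and 20.8 FPKM in hND6 and 14.2, 13.0 and 15.8 FPKM in mCherry. All 3 stood higher in each hND6 library than in any mCherry library. Rpl3-ps1 (chrX:13202571-13203780, plus strand), with 2 mismatches to Rpl3, a protein near the catalytic centre of the large subunit, had 18.7, 19.0 and 20.4 FPKM in hND6 and 14.9, 12.3 and 14.8 FPKM in mCherry. Rpl28-ps1 (chr1:128038569-128038982, plus strand, opposite to Zranb3), identical to the large-subunit gene Rpl28, had 19.1, 19.3 and 20.1 FPKM in hND6 and 12.6, 13.3 and 13.4 FPKM in mCherry. Rpl34-ps1 (chr6:71124610-71124963, plus strand), a copy of another large-subunit gene, was the copy with overlap among the 10 highest. It had 9.98, 12.7 and 15.2 FPKM in hND6 and 13.4, 7.92 and 10.7 FPKM in mCherry, and its groups overlapped.

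**Figure D2:**
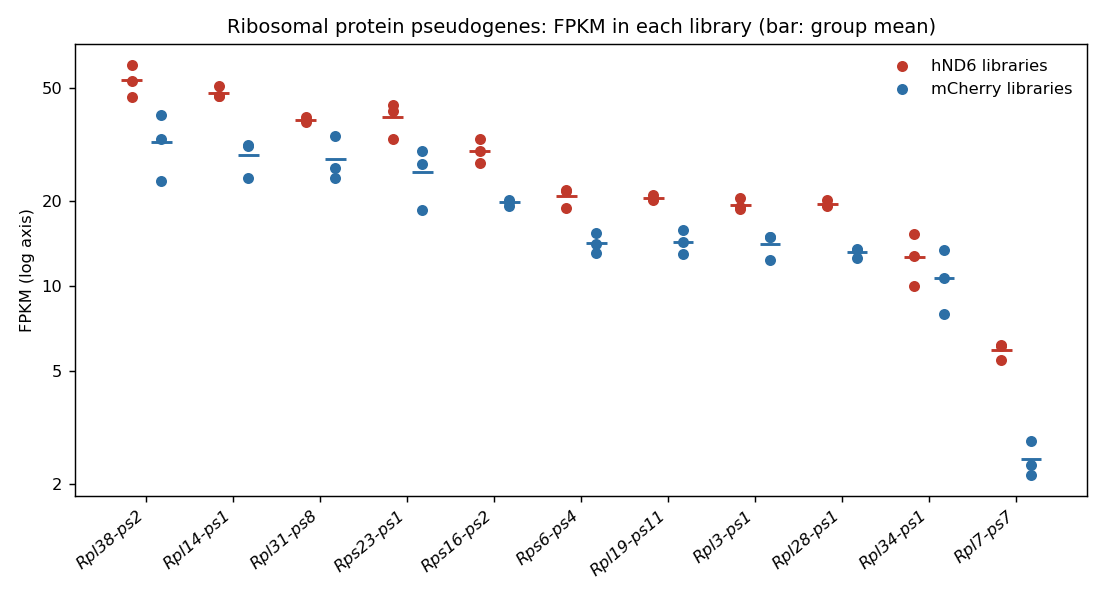
FPKM (log axis) of the 10 tested pseudogenes of highest mean level and of Rpl7-ps7, with points for single libraries and bars for group means, hND6 left of mCherry. Points of the groups are separate for every copy except Rpl34-ps1, whose hND6 libraries lie from 9.98 to 15.2 FPKM and whose mCherry libraries lie from 7.92 to 13.4 FPKM. Over all tested genes 12.6% are separate with hND6 higher, and Rpl7-ps7 is shown for its small p.

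The comparison of the groups asks how RNA of the optic nerve differs between hND6 and mCherry. Among the tested pseudogenes 32 of 36 had a log2 fold change above 0, but none had a limma adjusted p under 0.05, against 0.0433% of all 16157 tested genes. The smallest adjusted p was 0.14 and 18 of the 36 had an unadjusted p under 0.05. Groups did not overlap, with hND6 higher, in 18 of 36 pseudogenes (50%), against 12.6% of all tested genes, and in 0 of 36 with hND6 lower, against 10.2%. The median log2 fold change, on the scale of log2(FPKM + 0.5), was 0.53 over the pseudogenes and -0.01 over all tested genes. Without mCherry 3, the library with the most neuron marker RNA, 3 pseudogenes passed in limma (Rpl31-ps8 with adjusted p = 0.0453, Rpl28-ps1 with 0.0462 and Rpl19-ps11 with 0.05), while 131 genes passed over the whole table.

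Rpl7-ps7 differed most. It had 6.10, 6.20 and 5.45 FPKM in hND6 and 2.14, 2.83 and 2.34 FPKM in mCherry, a mean of 5.92 ± 0.409 against 2.44 ± 0.355 FPKM (SD, n = 3 each). On the log2 scale it lay 1.13 ± 0.14 higher in hND6 (SE, with adjusted p = 0.14 in limma). Rps15-ps2 had the log2 fold change 0.88 ± 0.19 (limma adjusted p = 0.174) with 13.9 ± 1.15 FPKM in hND6 and 7.49 ± 1.92 FPKM in mCherry. Rpl38-ps2 had 0.75 ± 0.21 (limma adjusted p = 0.211) and Rpl14-ps1 0.73 ± 0.12 (limma adjusted p = 0.143). Another 7 of the 10 most abundant copies had log2 fold changes from 0.46 (Rpl3-ps1) to 0.65 (Rps23-ps1), with limma adjusted p from 0.143 to 0.245, and Rpl34-ps1 had 0.25 ± 0.22 (limma adjusted p = 0.645). The value of Rpl34-ps1 was 0.057 without mCherry 2, 0.11 without hND6 3, 0.42 without mCherry 1 and 0.40 without hND6 1.

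The parents also lay higher in hND6. Of the 55 protein-coding parents 54 were tested, none passed the limma threshold, and 53 (98.2%) were higher in every hND6 library than in any mCherry library, with a median log2 fold change of 0.60. The exception was Rpl29, which had 1433, 582 and 61 reads in hND6 and 96, 105 and 579 in mCherry. Rpl13 is listed at 0 in all 6 libraries, which is not read as absence of its RNA. Both were named after their values were seen. The ribosomal protein genes as a whole showed 74 of 77 tested genes without overlap and a median of 0.59. Other processed pseudogenes, not of ribosomal proteins by their symbol, showed 125 of 457 tested (27.4%) higher without overlap, and a median of 0.31. Only the symbol was used, so copies of ribosomal protein genes under other names, such as Gm numbers, may be among them. Copies of at least 99% identity to the parent had a median of 0.56 over 19 tested, and copies of lower identity 0.48 over 17 tested.

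Other quantities moved with the groups. Tested genes with a span under 3 kb had a median log2 fold change of 0.26 and protein-coding ones among them 0.34. The pseudogenes are short, with a median span of 441 bp. Once each library's trend with gene span was removed, the median over the tested pseudogenes was 0.13, with 7 of 36 higher without overlap. The share of all tested genes without overlap after this removal was not counted, so the 7 have no background beside them. The parents of the tested pseudogenes then had a median of 0.34, against 0.59 before the trend was removed. The 4 red blood cell markers, led by the haemoglobin genes Hbb-bs and Hba-a1, summed to 1284 to 2457 FPKM in hND6 and 169 to 438 FPKM in mCherry, with none at 0. The part of red blood cell RNA in the pseudogene levels was not tested. In RNA of whole nerve, fewer cells of a type and less RNA per cell cannot be told apart.

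**Figure D3:**
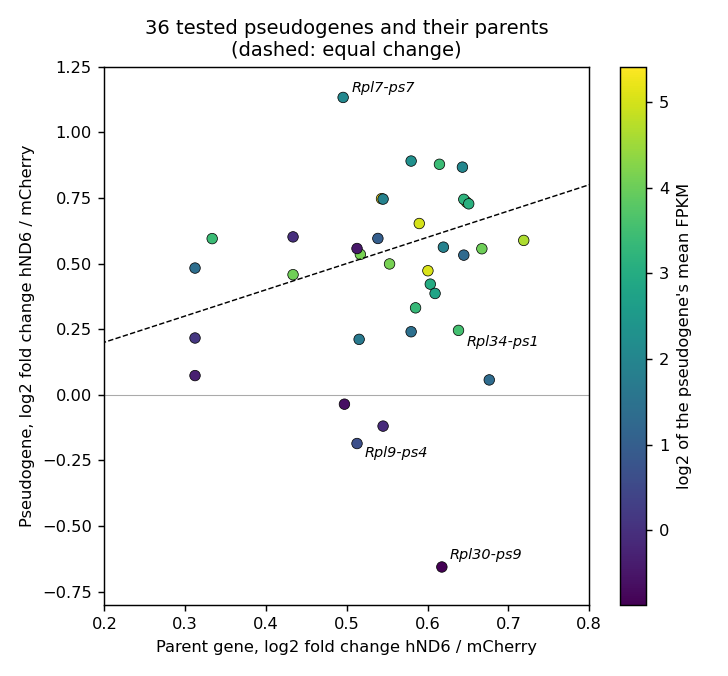
Log2 fold change, hND6 over mCherry, of each of the 36 tested pseudogenes (vertical axis) against that of its parent (horizontal axis), coloured by the pseudogene's mean FPKM on a log2 scale. The dashed line marks equal change. Every parent lies above 0.3 and the pseudogenes scatter from -0.66 (Rpl30-ps9) to 1.13 (Rpl7-ps7), which lie farthest below and farthest above the line.

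Setting each copy against its parent within a library takes out what scales both alike. No tested copy had a mean level above that of its parent. Rpl31-ps8 stood at 50.4, 53.3 and 49.3% of the FPKM of Rpl31 in hND6 and at 53.4, 52.1 and 61.8% in mCherry. FPKM divides by exon length, and as a percent of the parent's reads this copy stood lower. Its reads were 18.2, 19.2 and 17.8% of those of Rpl31 in hND6 and 19.3, 18.8 and 22.3% in mCherry. Rpl14-ps1 stood at 48.7, 48.8 and 45.2% of Rpl14 in hND6 and at 50.1, 39.2 and 45.2% in mCherry. Rpl38-ps2 stood at 42.9, 38.3 and 48.6% of Rpl38 in hND6 and at 40.3, 31.2 and 40.9% in mCherry. In these 3 pairs the libraries of the groups overlapped. Rps16-ps2 averaged 46.9 ± 7.02% of Rps16 in hND6 and 51.4 ± 9.39% in mCherry (SD, n = 3 each). Lower ratios were seen for Rps6-ps4 with 19.9 ± 2.80% of Rps6 in hND6 and 19.4 ± 1.35% in mCherry. Rpl3-ps1 stood at 11.4 ± 0.781% of Rpl3 in hND6 and 11.1 ± 0.767% in mCherry.

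Among the named pairs the highest ratio difference was that of Rpl7-ps7. Rpl7 had 127, 137 and 132 FPKM in hND6 and 92.4, 92.2 and 95.6 FPKM in mCherry, which is 0.50 ± 0.07 higher on the log2 scale (SE, with adjusted p = 0.143 in limma). The copy stood at 4.81, 4.52 and 4.14% of Rpl7 in hND6 and at 2.32, 3.07 and 2.44% in mCherry, so that the groups did not overlap. The log2 ratio of copy to parent was 0.64 higher in hND6 (exact two-sided permutation p = 0.1, the smallest that 3 against 3 libraries allow; 0.55 after Benjamini-Hochberg adjustment over 11 named pairs). Rpl7-ps7 was named for its small p between the groups in the same 6 libraries, so this ratio is not independent of that choice. Rpl19-ps11 reached the same p with a difference of -0.05, at 31.8 ± 0.340% of Rpl19 in hND6 and 32.8 ± 0.905% in mCherry. Rps15-ps2, outside the named pairs, stood at 5.58, 6.69 and 5.39% of Rps15 in hND6 and at 3.80, 5.51 and 5.07% in mCherry, with overlap.

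Over all 36 pairs the difference in log2 ratio between hND6 and mCherry had a median of -0.06, with 17 above 0 and 19 below, and 26 lay within 0.3 of 0. The sign of this median depended on the constant added before the log, which understates changes of low copies. With a constant of 0.1 FPKM the median was 0.01, with 19 above 0. With 1 added to recovered reads it was 0.02, with 20 above 0. With a constant of 1 FPKM it was -0.12, with 15 above 0. Once the gene span trend was taken out, 7 of 36 lay above 0 and the median was -0.21. Groups did not overlap in 3 pairs with a higher ratio in hND6 (8.33% of pairs), which were Rpl7-ps7, Rpl10a-ps1 and Rps13-ps2. They did not overlap in 2 with a lower one (5.56%), Rpl19-ps11 and Rpl30-ps9. These shares are over the same 36 pairs, and no wider set of pairs was counted as a background. Full separation of 3 against 3 libraries has an exact two-sided permutation p of 0.1, so a few such pairs among 36 are not read as a result. Rpl10a-ps1, identical to Rpl10a, stood at 26.7 ± 1.53% of it in hND6 and 21.9 ± 2.53% in mCherry. Rps13-ps2, identical to Rps13, stood at 12.5 ± 0.824% in hND6 and 10.003 ± 1.06% in mCherry. Rpl30-ps9 was highest in mCherry 1. It had 3, 1 and 2 reads in hND6 and 22, 2 and 3 in mCherry, and 97.6% of its windows also occur in the pseudogene Gm12191. Rpl9-ps4 was highest in mCherry 1 as well, with 14, 23 and 14 reads in hND6 and 70, 12 and 14 in mCherry. These 4 copies other than Rpl7-ps7 and Rpl19-ps11 were named after their values were seen.

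**Figure D4:**
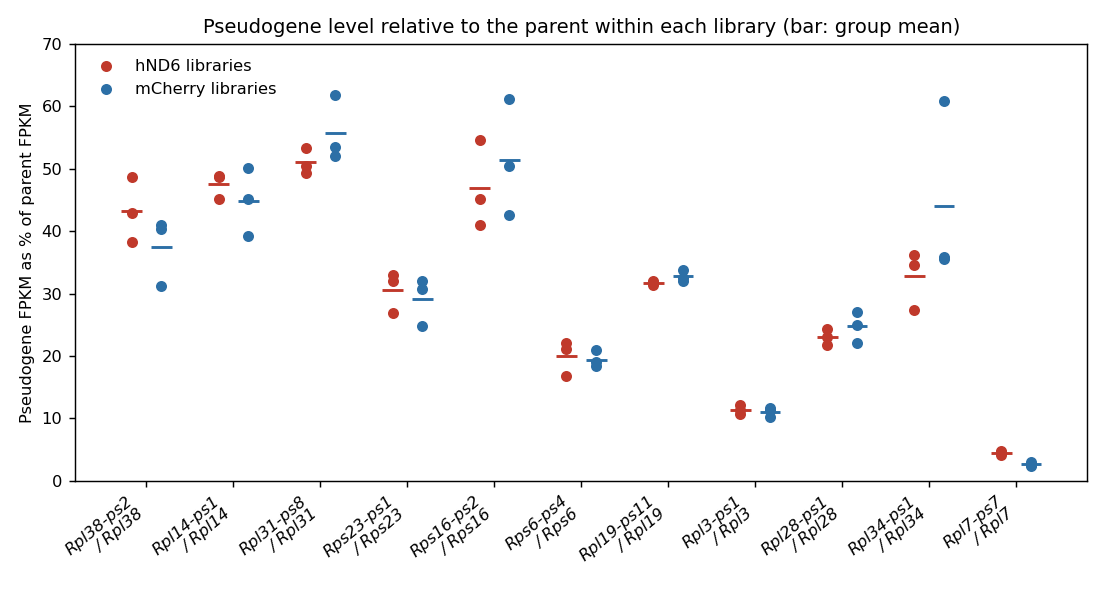
Pseudogene FPKM as a percent of the parent's FPKM in the same library for the 11 named pairs, with points for libraries and bars for group means, hND6 left of mCherry. Ratios run from about 50% for Rpl31-ps8 to under 5% for Rpl7-ps7, and the groups are separate in Rpl7-ps7 and, by a narrow gap, in Rpl19-ps11.

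Summed over all 254 copies, reads per 1000000 assigned reads were 209, 212 and 218 in hND6 and 150, 121 and 157 in mCherry. The parents summed to 4736, 4852 and 4984 on the same scale in hND6 and 3260, 2853 and 3639 in mCherry. Both sums were higher in every hND6 library. As a share of pseudogene and parent reads together, the copies made up 4.23, 4.19 and 4.20% in hND6 and 4.40, 4.06 and 4.14% in mCherry, so that the hND6 values lay inside the mCherry range. The number of copies with at least 1 read was 70, 61 and 64 in the hND6 libraries and 61, 60 and 67 in the mCherry libraries.

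**Figure D5:**
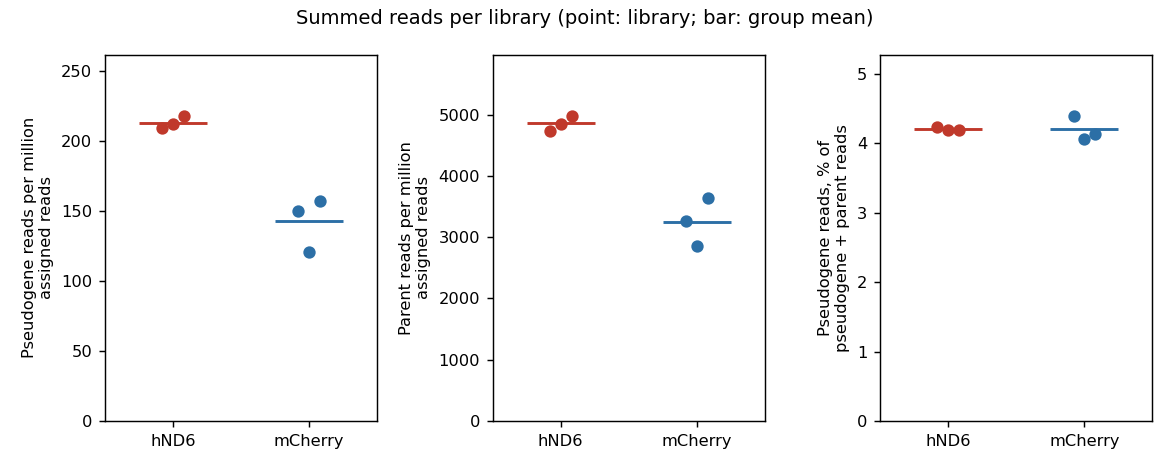
Reads per 1000000 assigned reads summed over the 254 pseudogenes (left) and over their 55 parents (middle), and pseudogene reads as a percent of both together (right), for each library with bars for group means. The first 2 panels separate hND6 from mCherry, and in the last the hND6 libraries (4.19 to 4.23%) lie within the mCherry libraries (4.06 to 4.40%).

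Abundant copies among those below the filter were near the limit of detection. Rps27a-ps1, a copy of the gene for a ubiquitin fused to a small-subunit protein, had 4, 9 and 1 reads in hND6 and 5, 2 and 5 in mCherry. Rps18-ps3 had 10, 5 and 4 reads in hND6 and 2, 0 and 3 in mCherry. The groups overlapped for Rps27a-ps1 and, in FPKM as in reads, were separate for Rps18-ps3 by few reads. No difference was tested at this depth.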

How the data were processed

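Optic nerve RNA of 6 libraries was analysed as deposited. Values are FPKM made by the authors, per the labels. The 6 single-library tables and the combined table are identical in value. Tools named in the submitters' processing notes are STAR, HTSeq, Trim Galore and CASAVA 1.4, with the builds GRCm38 and mm10. FPKM times exon length gave whole reads (within 0.1 read) for at least 99.99% of values, which set the depths given.

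Testing used limma 3.58.1 on log2(FPKM + 0.5) for the 16157 genes that averaged 0.5 FPKM or more, in R 4.3.3 and with an intensity trend, hND6 against mCherry, Benjamini-Hochberg adjusted over all of them. This scale understates changes of low genes. On simulated data for hND6 against mCherry (16050 genes, 200 of them changed by 2 on the log2 scale) all 200 were called, with 28 false calls. The false calls were a larger share of all calls than the adjusted p threshold aims at. The tested pseudogenes had a median log2 fold change of only 0.53. Smaller changes were not simulated, so the recovery does not tell how often changes of that size would be called. The simulation also used the same dispersion for every gene and no differences in tissue content between libraries. The neuron and photoreceptor markers of the real libraries did differ, so the recovery need not hold for them. Parents are the genes named before -ps. Of the copies 251 were aligned to the best scoring protein-coding GENCODE M21 transcript of the parent (Biopython 1.88). Replicate numbers were not used to pair libraries. Named are the 10 tested copies of highest mean, the 5 of smallest p, the 3 highest untested, their parents, and others said to be chosen later. Some items that this rule or the marker lists take are not reported here. The copies and lists were chosen with earlier results of these data known. Alternatives were other pseudocounts, filters, scalings and variance settings, a replicate block, each library left out, and, chosen after seeing the data, voom and removal of the gene span trend.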

Additional observations from a re-analysis of the deposited data

How the results depend on the processing

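Over all genes the count past the threshold was 7. It was 1 with no filter on low values, 0 with the replicate block and 0 with voom on recovered reads, the last chosen after seeing the data, and 0 to 131 with single libraries left out (131 without mCherry 3, 0 without mCherry 2). The other settings gave 5 to 8. With the replicate block 1789 genes had an unadjusted p under 0.05 in limma. Same-numbered libraries deviated from their group means with correlations of -0.42, 0.36 and -0.20. The highest correlation, 0.56, was between hND6 1 and mCherry 3, the libraries with the most neuron marker RNA. These correlations therefore cannot show whether same-numbered libraries share an animal or batch, and the labels do not say.

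The count of pseudogenes past the threshold was 0 in each setting but without mCherry 3, with a range over single libraries left out of 0 to 3. Their median log2 fold change of 0.53 was 0.079 with no filter (108 copies), 0.40 with values scaled to a constant sum (all genes -0.14), and 0.13 with the gene span trend removed, also chosen after seeing the data. It was 0.42 to 0.57 with single libraries left out. The 18 copies higher without overlap became 7 with the span trend removed, and 18 to 22 with libraries left out. The shares of all tested genes under these settings were not counted, and groups of fewer libraries separate more readily. The median difference from the parent, -0.06 in the main setting, was 0.01 with pseudocount 0.1 and -0.12 with pseudocount 1. It was 0.02 with 1 added to recovered reads, so its sign was not stable. It became -0.21 with the span trend removed, where Rpl34-ps1 had a log2 fold change of -0.20. The differences from the parent were then -0.072 for Rpl14-ps1, -0.13 for Rpl3-ps1, -0.083 for Rpl38-ps2, -0.093 for Rps23-ps1 and -0.11 for Rps6-ps4. The cause was not tested.

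With single libraries left out, the difference from the parent ran from -0.0056 to 0.17 for Rpl14-ps1, from -0.030 to 0.072 for Rpl3-ps1, from -0.26 to 0.0015 for Rps16-ps2, from -0.045 to 0.15 for Rps23-ps1 and from -0.058 to 0.14 for Rps6-ps4, so that each changed sign without at least 1 library. Of 198 values of named copies under the alternatives 194 kept their direction and side of the threshold, 3 passed it and 1 changed sign, and of 121 differences from the parent 13 changed sign.

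The share of pseudogene reads was 3.98% in hND6 and 3.96% in mCherry without copies on a gene of their strand, 3.62% in hND6 and 3.67% in mCherry without Rpl14-ps1, and 7.36% in hND6 and 7.42% in mCherry for summed FPKM. An edgeR quasi-likelihood fit on recovered reads was planned and not run, since the deposited values are FPKM. Depth limits the 72 copies below the filter.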

Other observations

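Of the genes with an Rpl or Rps symbol and -ps, 11 are listed as protein-coding and were not counted among the pseudogenes. Of these 3 were tested. Rpl9-ps6 had 8.83, 8.27 and 9.76 FPKM in hND6 and 7.01, 7.60 and 7.93 FPKM in mCherry, without overlap (log2 fold change 0.24, limma adjusted p = 0.339). Rpl23a-ps3 had 5.11, 5.21 and 3.01 FPKM in hND6 and 2.56, 3.29 and 3.18 FPKM in mCherry, with overlap (0.47, limma adjusted p = 0.381). Rpl10-ps3 had 1.64, 1.58 and 2.01 FPKM in hND6 and 0.643, 0.864 and 1.16 FPKM in mCherry, without overlap (0.70, limma adjusted p = 0.243). None of the 3 passed the threshold.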
